A study of Mus musculus with 18 samples.

Results

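The enteroendocrine cells of the gut are described here through 10 genes: the granins *Chga* and *Chgb*, the serotonin enzyme *Tph1*, the hormone genes *Pyy*, *Gcg*, *Insl5*, *Sst* and *Cck*, and the transcription factors *Neurod1* and *Neurog3*. They were taken by symbol from a table of 36757 genes, in which all 10 were counted. On mm10 (GENCODE M21) they lie at chr12:102554969-102565028 (*Chga*), chr2:132781278-132795079 (*Chgb*), chr7:46644641-46672537 (*Tph1*), chr11:102106676-102107832 (*Pyy*), chr2:62474530-62483650 (*Gcg*), chr4:103017872-103026842 (*Insl5*), chr16:23889573-23890958 (*Sst*), chr9:121489824-121495694 (*Cck*), chr2:79452521-79456751 (*Neurod1*) and chr10:62133090-62134763 (*Neurog3*), and reads over their exons were counted. Enteroendocrine cells are scattered single cells of the intestinal epithelium that sense the gut content and secrete peptides or serotonin. They arise from the crypt progenitors that express *Neurog3* for a short time, then switch on *Neurod1*, and store their hormones in dense granules built from granins. In the colon the main types are the L cells, which make GLP-1 and PYY and, near the rectum, INSL5, the enterochromaffin cells, which make serotonin through TPH1, and the somatostatin-producing D cells, while CCK is best known from the I cells of the small intestine.

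RNA was sequenced from colon of C57BL/6 mice with chronic colitis, from colon of mice with colitis-associated colorectal cancer (CAC), and from organoids, which are epithelial cultures grown in matrigel from tumor-bearing fragments of the CAC colon. Each model had 3 libraries of RNF138fl/fl mice, named wild type in the labels, and 3 labelled RNF138-/-, 18 in all. Colitis was induced in mice 6 to 8 weeks old with 2% dextran sulfate sodium (DSS) in the water for 7 days and then 14 days of water, the cycle was repeated 2 times, and tissue was taken 4 weeks after the last DSS. CAC mice first received 10 mg/kg of the carcinogen azoxymethane and had their first DSS 4 days later. The promoter of the deleting Cre and the extent of the deletion are not given in the sources used here, nor is whether the libraries of a group came from separate animals, so p-values measure only the spread between these libraries, which may be technical.

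Total counts were between 11514716 and 24390082 per library. *Rnf138* was at 15.6 to 55.6 CPM (counts scaled to library size, TMM-normalized) in RNF138fl/fl libraries and at 17.97 to 50.2 in the others, so the second group is called by its label throughout. In CAC it was at 27.5, 27.2 and 21.5 CPM in RNF138fl/fl libraries and at 39.6, 45.3 and 45.7 in those labelled RNF138-/-, all above the first. Several libraries stood apart before any comparison of genotypes. In CAC, RNF138fl/fl replicate 2 held a summed 1301 CPM of pancreas markers and replicate 3 held 83.7, nearly all from digestive enzyme genes, against at most 7.32 in every other library. *Hoxb13*, a gene of the most distal hindgut, was at 4.85 and 7.84 CPM in colitis replicates 2 and 3 labelled RNF138-/- and at 4.63 in CAC RNF138fl/fl replicate 3, against 73.9 to 256 in the other 9 tissue libraries. The Y-linked *Ddx3y* was at 0 in the 3 RNF138fl/fl organoid libraries and at 150.3 to 184.8 CPM in the 3 labelled RNF138-/-, so in the organoids sex and genotype cannot be told apart. The labels call the tissue colorectal, and the epithelial gene *Epcam* was between 1189 and 2176 CPM in the tissue libraries and between 826 and 1622 in the organoids. The tissue held muscle as well, and in colitis replicate 1 labelled RNF138-/- 8 smooth muscle genes summed to 13476 CPM, above the 13143 of 10 pan-epithelial genes.

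The start regions of 3 members are shown because their levels took 3 courses across the models: *Chga*, a granin, was counted in every library, *Gcg*, an L-cell hormone gene, was near 0 in the organoids, and *Cck* was highest there. NEUROD1 and NEUROG3 are basic helix-loop-helix factors that bind E-boxes, so each match to the E-box letters CANNTG, read the same on both strands, is in capitals. The sequences are the 250 bases before the RefSeq start site on GRCm38.p6, on the gene's own strand, at chr12:102554691-102554940 (plus strand) for *Chga*, chr2:62483654-62483903 (minus strand) for *Gcg* and chr9:121495695-121495944 (minus strand) for *Cck*.
Chga: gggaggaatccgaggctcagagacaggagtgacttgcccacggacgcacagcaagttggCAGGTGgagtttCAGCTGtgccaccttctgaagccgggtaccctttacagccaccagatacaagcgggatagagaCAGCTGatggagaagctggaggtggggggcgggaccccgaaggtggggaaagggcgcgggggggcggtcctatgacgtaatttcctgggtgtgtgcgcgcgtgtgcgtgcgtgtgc
Gcg: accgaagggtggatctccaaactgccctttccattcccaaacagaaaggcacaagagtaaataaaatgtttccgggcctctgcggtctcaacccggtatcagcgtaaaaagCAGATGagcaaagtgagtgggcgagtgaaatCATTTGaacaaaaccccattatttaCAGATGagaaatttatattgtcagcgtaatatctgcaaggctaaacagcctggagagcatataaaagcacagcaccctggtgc
Cck: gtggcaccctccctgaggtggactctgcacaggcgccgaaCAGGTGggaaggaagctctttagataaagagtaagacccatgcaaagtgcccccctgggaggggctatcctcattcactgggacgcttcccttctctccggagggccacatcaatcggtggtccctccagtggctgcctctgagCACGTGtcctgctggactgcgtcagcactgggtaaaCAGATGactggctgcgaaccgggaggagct
Each of the 3 windows held 3 matches, while *Tph1* held 0, and 66.2% of the 32851 windows of this kind in the reference held at least 1 (median 1). The form CAGATG, or CATCTG on the other strand, occurred 2 times before *Gcg*, 1 time before *Cck* and 1 time before the second start site of *Insl5*, and in 14.4% of all windows. The cAMP response letters TGACGTCA occurred 1 time each in the windows of *Chgb* and *Sst*, and in 1.55% of all windows. A match is a string of letters and not a shown binding site.

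Because a longer gene collects more reads, genes are compared with each other only per kb of exon. In RNF138fl/fl colitis tissue the L-cell hormones led: *Insl5* had a mean of 213 CPM per kb, *Pyy* 135 and *Gcg* 80.9, followed by *Chgb* with 53.7, *Chga* with 37.3, *Sst* with 14.0, *Cck* with 6.18 and *Tph1* with 4.62. The transcription factors were far lower, at 1.19 for *Neurod1* and 0.989 for *Neurog3*. Summed over the 8 hormone, granin and enzyme genes, the level was 544 CPM per kb in RNF138fl/fl colitis tissue, 422 in colitis labelled RNF138-/-, 199 in RNF138fl/fl CAC tissue, 40.9 in CAC labelled RNF138-/-, and 103 and 100.01 in the organoids of the 2 genotypes. The make-up of that sum differed between groups as well. In single libraries of CAC labelled RNF138-/- the sum was 13.3, 37.6 and 71.9, and its mean was 25.4 without replicate 3. *Insl5* was 39.0% of it in RNF138fl/fl colitis tissue and 0.150% in RNF138fl/fl organoids, *Pyy* was 66.3% of it in CAC labelled RNF138-/- (44.2%, 72.5% and 67.1% in the 3 libraries), and *Cck*, at most 1.14% in any tissue group, was 40.5% and 49.8% in the organoids.

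Ordered by mean CPM over the 6 groups, *Chga* and *Tph1* were highest in colitis, then in RNF138fl/fl CAC tissue, and from there to the next group, RNF138fl/fl organoids, the libraries no longer overlapped (means of 68.6 and 28.5 CPM for *Chga*, 21.4 and 4.56 for *Tph1*). *Gcg* and *Insl5* stepped down between RNF138fl/fl CAC tissue (24.9 and 19.7) and CAC labelled RNF138-/- (0.706 and 1.03), and *Gcg* also between the 2 colitis groups (121 and 48.3). *Insl5* stepped down once more from CAC labelled RNF138-/- to RNF138fl/fl organoids (0.112). *Sst* had one such step, from RNF138fl/fl colitis (10.1) to CAC labelled RNF138-/- (0.0479), *Cck* one from RNF138fl/fl organoids (54.6) to RNF138fl/fl colitis (8.06), and *Neurod1* one from RNF138fl/fl CAC tissue (1.55) to organoids labelled RNF138-/- (0.280). For *Chgb*, *Pyy* and *Neurog3* every neighbouring pair in the order overlapped.

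**Figure D1:**
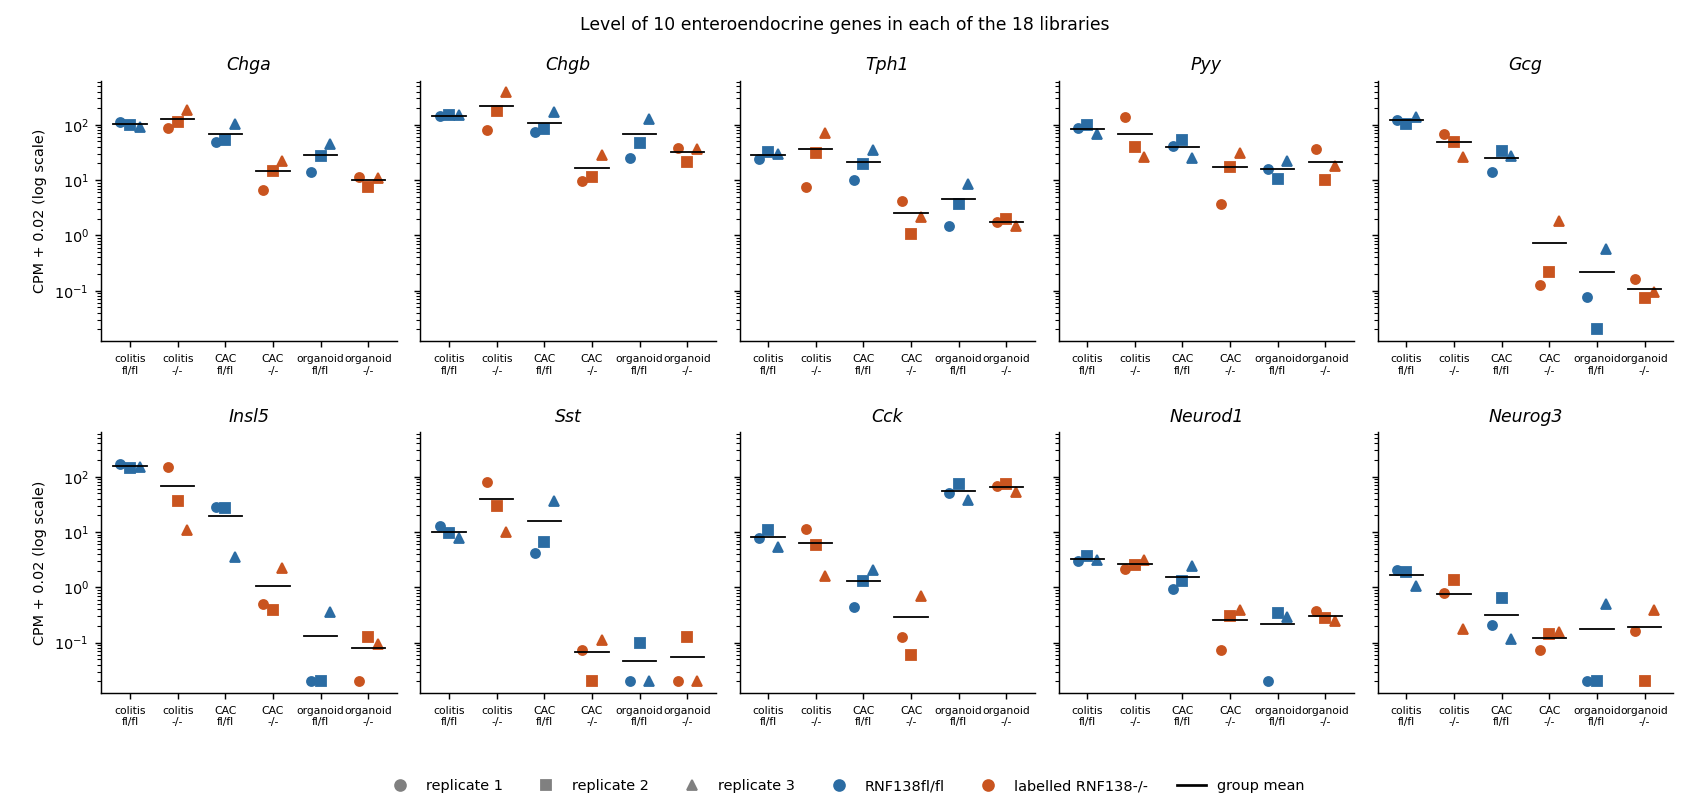
CPM + 0.02 on a log axis for each member in each library, with 3 libraries per group, symbols for replicates, colors for genotype labels and a line at the group mean. *Gcg*, *Insl5* and *Sst* were at most 0.539 CPM in every organoid library, *Cck* was highest there, and *Sst* in CAC labelled RNF138-/- was within 0.1 CPM of 0.

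**Figure D2:**
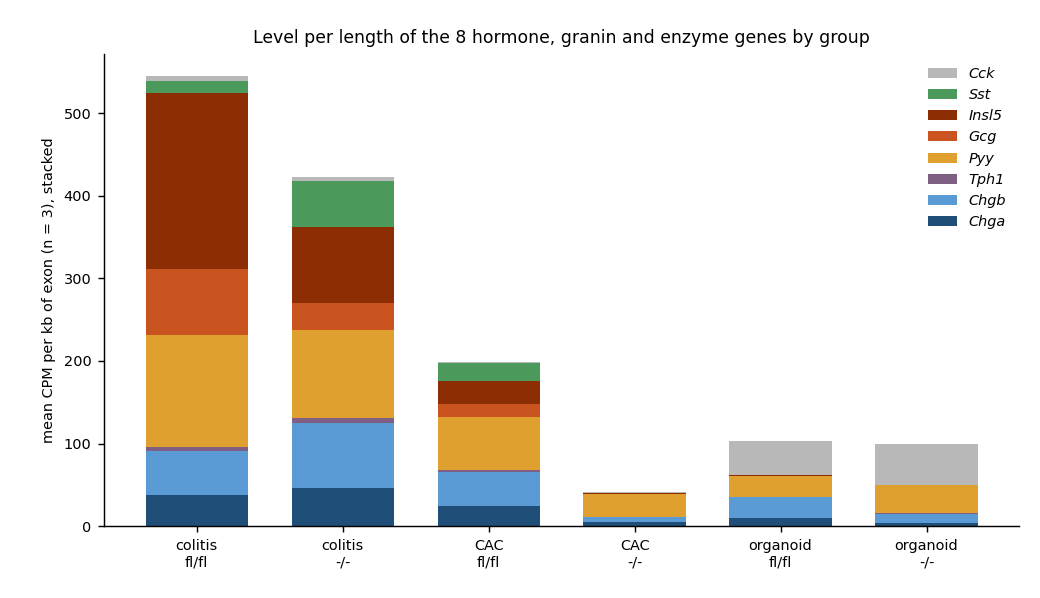
Mean CPM per kb of exon (n = 3) of the 8 hormone, granin and enzyme genes, stacked by group from 0. The stack is tallest in RNF138fl/fl colitis tissue (544) and lowest in CAC labelled RNF138-/- (40.9, or 25.4 without replicate 3), where *Pyy* is 66.3% of the mean sum.

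In colitis no member passed the thresholds between genotypes, which were 0.05 for the adjusted p and 2-fold for the size, with 10 of 10 tested. Among all 16623 genes tested, 0.0902% passed. At an unadjusted p under 0.05 and 2-fold, 2 members did, *Gcg* (lower) and *Sst* (higher), where the share over all genes was 4.48%, and DESeq2, which called 2.06% of all genes, called these same 2 with adjusted p of 0.00956 and 0.0296. The median log2 fold change of the members was -0.34, against 0.02 over all genes. Values within the group labelled RNF138-/- were spread far more widely than among RNF138fl/fl libraries for most members, and the members did not spread in the same order.

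The granins and *Tph1* were highest in replicate 3 labelled RNF138-/-. *Chga*, which encodes chromogranin A, was at 115, 100.5 and 93.1 CPM in RNF138fl/fl libraries and at 86.3, 114 and 184 in those labelled RNF138-/- (log2 fold change 0.32, SE 0.28, adjusted p = 0.762). *Chgb*, its relative, was at 143, 149 and 150.3 against 81.5, 179.8 and 385 CPM. *Tph1*, the rate-limiting enzyme of serotonin synthesis in the gut, was at 24.4, 32.0 and 29.1 against 7.59, 30.9 and 70.1 CPM. For all 3 genes the RNF138fl/fl libraries lay inside the range of the other group.

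Among the libraries labelled RNF138-/-, the L-cell hormones were instead highest in replicate 1 and lowest in replicate 3. *Insl5*, an insulin-like hormone of distal L cells, was at 167, 143 and 152 CPM in RNF138fl/fl libraries and at 152, 37.1 and 10.98 in those labelled RNF138-/-. *Pyy*, which encodes a peptide that slows gut transit, was at 87.1, 99.3 and 69.5 against 137, 39.1 and 26.0. *Gcg*, the gene of proglucagon and so of GLP-1, was at 124, 102 and 137 against 68.8, 49.7 and 26.4. *Gcg* was the only member whose genotypes did not overlap in colitis, which 17.2% of all genes also showed, with a log2 fold change of -1.33 (SE 0.33, adjusted p = 0.208). The replicates with low *Insl5* and *Pyy*, 2 and 3, were those with *Hoxb13* under 8 CPM, and the part of colon position in these values was not tested. With those replicates left out, *Chga*, *Chgb* and *Tph1* were lower in the remaining library labelled RNF138-/- (log2 fold changes of -0.29, -0.89 and -1.94) and *Pyy* and *Cck* higher (0.65 and 0.43), the reverse of the values with all libraries. That fit assumes that the lone library varies like the RNF138fl/fl ones, and it called *Tph1* lower (adjusted p = 0.0283) and *Sst* higher (2.94, 0.00467).

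*Sst*, which encodes somatostatin, the peptide that restrains other secretory cells, was at 12.8, 9.60 and 7.92 CPM in RNF138fl/fl colitis libraries and at 79.9, 29.5 and 10.2 in those labelled RNF138-/- (log2 fold change 1.97, SE 0.64, adjusted p = 0.338). Its lowest value in the second group was below the highest of the first. Neuron and muscle genes were highest and lowest in the same libraries of that group as *Sst*, with summed levels of 375, 186 and 135 CPM for 12 enteric neuron genes and of 13476, 8544 and 4323 for smooth muscle genes, against 161 to 201 and 5811 to 7160 in RNF138fl/fl libraries. Enteric glia genes were at 65.9, 46.3 and 42.5 CPM, above the 24.7 to 27.4 of every RNF138fl/fl library. Some enteric neurons make somatostatin, and their part in these values was not tested. *Cck* was at 7.92, 10.9 and 5.38 against 11.1, 5.93 and 1.60 CPM, in ranges that overlapped. Of the transcription factors, *Neurod1* was between 3.01 and 3.65 CPM in RNF138fl/fl libraries and between 2.09 and 3.14 in the others, and *Neurog3* between 1.05 and 2.01 and between 0.155 and 1.32. The exons of *Neurod1* overlap those of *Cerkl*, with 5.71% of its 50-base windows shared, and *Neurog3* overlaps *Fam241b* on the opposite strand. Whether strand was used in counting is not stated, so both values may hold reads of the neighbours.

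**Figure D3:**
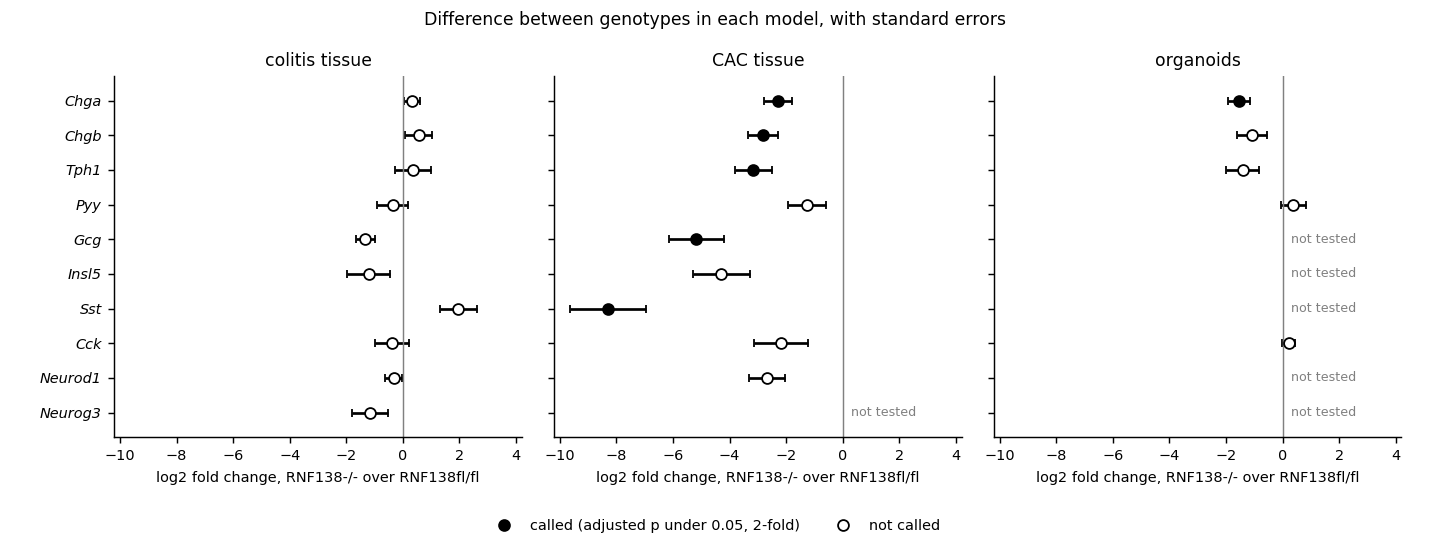
Log2 fold change between the genotype labels with its standard error for each member in the 3 models, from edgeR fits of 3 against 3 libraries. Filled points passed both thresholds: 0 members in colitis, 5 in CAC, all lower, and *Chga* in the organoids.

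In CAC tissue 5 members were lower in the libraries labelled RNF138-/- and 0 were higher, of 9 tested: *Chga*, *Chgb*, *Tph1*, *Gcg* and *Sst*. *Neurog3* had too few counts to be tested. Of all 17752 genes, 4.83% were called lower (5.37% in either direction, 0.546% higher). All 9 members tested had a log2 fold change below 0, with a median of -2.82 against 0.01 over all genes. The genotypes did not overlap for 7 of the 9, each lower, as for 20.7% of all genes in that direction. In bulk tissue, fewer cells of a type and less RNA per cell cannot be told apart.

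*Sst* had the largest fall among the members. It was at 4.12, 6.58 and 36.8 CPM in RNF138fl/fl libraries, from 596 counts, and at 0.0531, 0 and 0.0905 in those labelled RNF138-/-, from 3 counts in all. The ratio of the counts was 271, with a 95% interval of 92.3 to 1318 that covers counting error only (exact Clopper-Pearson), and the fitted log2 fold change of -8.29 (SE 1.34, adjusted p = 0.0310) depends on the prior count that the fit adds. *Gcg* was next, at 14.1, 33.3 and 27.1 against 0.106, 0.202 and 1.81 CPM (log2 fold change -5.17, SE 0.96, adjusted p = 0.0381, 36.1-fold). The highest library labelled RNF138-/- was below the lowest of the other group, and 40 of the 47 counts in the libraries labelled RNF138-/- were in replicate 3.

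The granins and *Tph1* fell by less. *Chga* was at 48.0, 53.7 and 104 CPM against 6.64, 14.8 and 22.3 (log2 fold change -2.29, SE 0.51, adjusted p = 0.0495, 4.90-fold). *Chgb* was at 73.5, 84.0 and 173 against 9.45, 11.3 and 28.0 (-2.82, SE 0.54, adjusted p = 0.0400, 7.07-fold). *Tph1* was at 10.1, 19.5 and 34.6 against 4.25, 1.05 and 2.17 (-3.17, SE 0.66, adjusted p = 0.0450, 8.99-fold). In each of these genes RNF138fl/fl replicate 3 was the highest library and every library labelled RNF138-/- was below all of the others. That replicate was also the one with *Hoxb13* at 4.63 CPM, against 256 and 199 in the other RNF138fl/fl CAC libraries, and with colonocyte genes at a summed 16980 CPM, against 3545 and 3373. The part of colon position in these values was not tested. *Chga* lost its call with RLE normalization (adjusted p = 0.0507), which left 4 members called.

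The other members tested did not pass in the edgeR fit of the 6 CAC libraries. *Insl5*, at 28.2, 27.5 and 3.50 CPM against 0.478, 0.364 and 2.26, missed the threshold with an adjusted p of 0.0542 (log2 fold change -4.29, SE 1.02). *Neurod1*, at 0.922, 1.27 and 2.46 against 0.0531, 0.283 and 0.362 CPM, missed it with 0.0550 (-2.69, SE 0.64). For both the genotypes did not overlap, and DESeq2 called both (adjusted p = 3.19e-05 for *Insl5* and 0.00389 for *Neurod1*), as did the fit with no filter on low counts and that of all 18 libraries, with 7 members called in each. All 7 were lower, where DESeq2 called 10.7% of all genes lower, the fit with no filter 4.36% and that of all 18 libraries 10.9%, against the 4.83% above. *Pyy* was at 41.6, 53.0 and 25.0 against 3.72, 17.2 and 30.4 CPM (-1.27, SE 0.68, adjusted p = 0.226) and *Cck* at 0.430, 1.27 and 2.08 against 0.106, 0.0405 and 0.678 (-2.19, SE 0.96, adjusted p = 0.1598), and both overlapped. *Neurog3* was between 0.0946 and 0.611 CPM and between 0.0531 and 0.136, from 17 and 7 counts. *Pyy* and *Gcg* are both products of L cells: *Pyy* had 2068 counts in RNF138fl/fl libraries and 1168 in the others, and *Gcg* had 1226 and 47. Whether the genes differ from each other in their change was not tested.

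The calls in CAC lay close to the threshold and depended on single libraries. Without RNF138fl/fl replicate 1 or replicate 2 only *Sst* was called, where 1.55% and 3.72% of all genes were. Without replicate 3 of that genotype 5 members were (with *Insl5* in place of *Chga*), where 6.16% of all genes were. With replicate 3 labelled RNF138-/- left out only *Gcg* was, where 0.605% of all genes were. Leaving out replicate 1 or 2 of that label left 0 members and 0 of all genes called. In either case 7 members were at an unadjusted p under 0.05 and 2-fold, which 16.4% of all genes passed with all libraries. Every one of these values stayed below 0. With 1 library left out the log2 fold changes ran from -2.71 to -1.83 for *Chga*, -3.44 to -2.31 for *Chgb*, -3.79 to -2.62 for *Tph1*, -7.26 to -4.70 for *Gcg* and -9.07 to -6.72 for *Sst*. The value of -7.26 for *Gcg* was without replicate 3 labelled RNF138-/- and that of -4.70 without replicate 1 or 2 of that label, and -6.72 for *Sst* was without RNF138fl/fl replicate 3. Leaving out both RNF138fl/fl libraries with pancreas marker reads left 0 members called and 6 past the unadjusted thresholds, with log2 fold changes between -6.33 (*Sst*) and -0.66 (*Cck*), in a fit where the lone RNF138fl/fl library is assumed to vary like the other group. The islet hormone gene *Ins1* was at most 0.189 CPM in any library, from 2 counts in RNF138fl/fl CAC replicate 3. The part of pancreatic RNA in *Gcg* and *Sst* was not tested. A covariate from 4 Y-linked genes left 0 members called, with 6 past the unadjusted thresholds, and 0 of all genes, and the log2 fold changes were then -2.17 for *Chga*, -3.09 for *Chgb*, -3.25 for *Tph1*, -6.75 for *Gcg* and -6.37 for *Sst*. All 12 tissue libraries held Y-linked reads, with *Xist* at most 0.584 CPM. The 4 Y-linked genes summed to between 147.6 and 228 CPM in the CAC libraries. The covariate uses up a degree of freedom, and the part of the Y-linked level in the members' values was not tested.

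**Figure D4:**
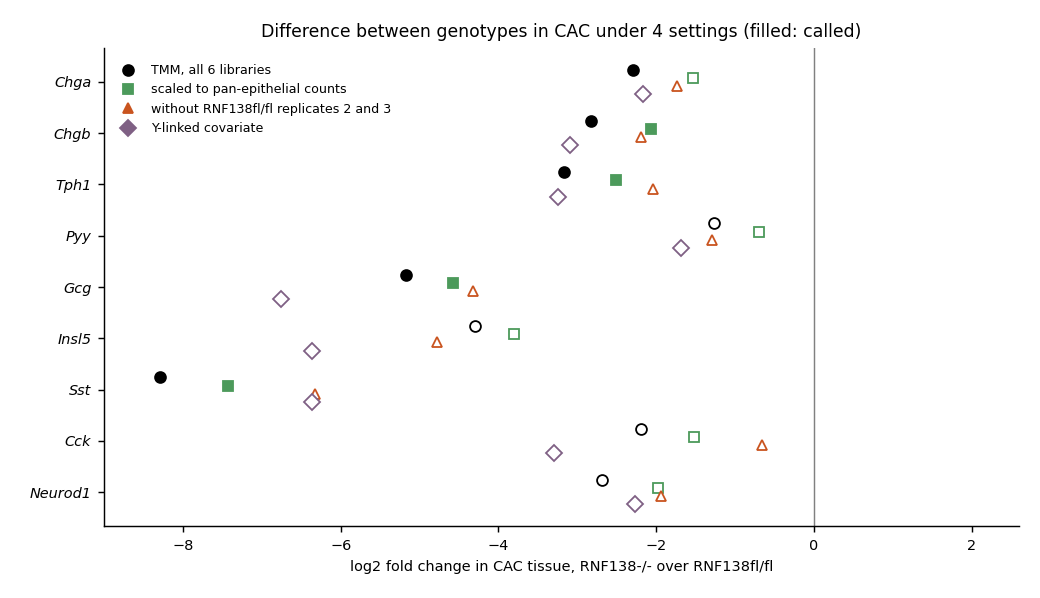
Log2 fold change of each tested member in CAC tissue under 4 settings, filled where the member was called. All values are below 0, and 5 members are called with TMM, 4 with scaling to pan-epithelial counts, and 0 without RNF138fl/fl replicates 2 and 3, which leaves 1 library of that genotype, or with the Y-linked covariate.

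Markers of other cell types moved with these genes in CAC. The summed level of 12 enteric neuron genes was between 77.7 and 156 CPM in RNF138fl/fl libraries and between 27.0 and 56.4 in those labelled RNF138-/-, and 7 of the 12 were called lower. Among them, *Elavl4* fell by 3.92 on the log2 scale. All 8 smooth muscle genes were called lower, *Myh11* by a log2 fold change of -5.03 and *Des* by -6.54, and their sum was between 2133 and 7802 against between 85.9 and 178 CPM. Glial genes were lower in 2 of 6 tested, including *Sox10* (-4.05). Some enteric neurons also make somatostatin, CCK and granins, and mast cells express *Tph1*. Of 12 mast cell genes tested, 1 was higher and 1 lower, and *Cpa3* and *Mcpt1* ranged from 1.22 to 22.8 and from 2.98 to 236 CPM across the 6 libraries. The part of these cells in the members' values was not tested.

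Some goblet cell and colonocyte genes were lower too. Of 10 goblet cell genes, 6 were called lower, *Muc2* by a log2 fold change of -2.90 and *Fcgbp* by -3.88. Of 12 colonocyte genes, 4 were, including *Car4* (-6.51), and *Slc26a3* (-5.21, adjusted p = 0.0623) was not. Of 6 tuft cell genes tested 0 were called and 3 passed the unadjusted thresholds, and 5 of the 6 were below 0 with a median of -1.06, with *Dclk1* at -1.69 and *Trpm5* at -3.03. Their sum was nevertheless higher in every library labelled RNF138-/- (123, 222 and 135 CPM) than in every RNF138fl/fl one (83.7, 98.5 and 122), with *Avil* at 1.56 (adjusted p = 0.0739). Of 8 stem cell genes 1 was called higher and all 8 were above 0, with *Lgr5* at 2.74 (adjusted p = 0.0730) and *Ascl2* at 1.71 (adjusted p = 0.1196), and their sum was between 1842 and 2306 against between 305 and 955 CPM. The 10 pan-epithelial genes summed to between 8560 and 15364 CPM against between 7146 and 8493, in ranges that did not overlap, with 2 called lower, and neither *Epcam* (-0.27) nor *Cdh1* (-0.22) passed. Scaled to the pan-epithelial counts, which moved the median of all genes from 0.01 to 0.62, 4 members were still called lower: *Chgb* (-2.07, adjusted p = 0.0440), *Tph1* (-2.51, 0.0429), *Gcg* (-4.57, 0.0315) and *Sst* (-7.43, 0.00893). *Chga* was at -1.53 with an adjusted p of 0.0743. With this scaling 183 genes were higher and 474 lower, against 97 and 857 with TMM.

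**Figure D5:**
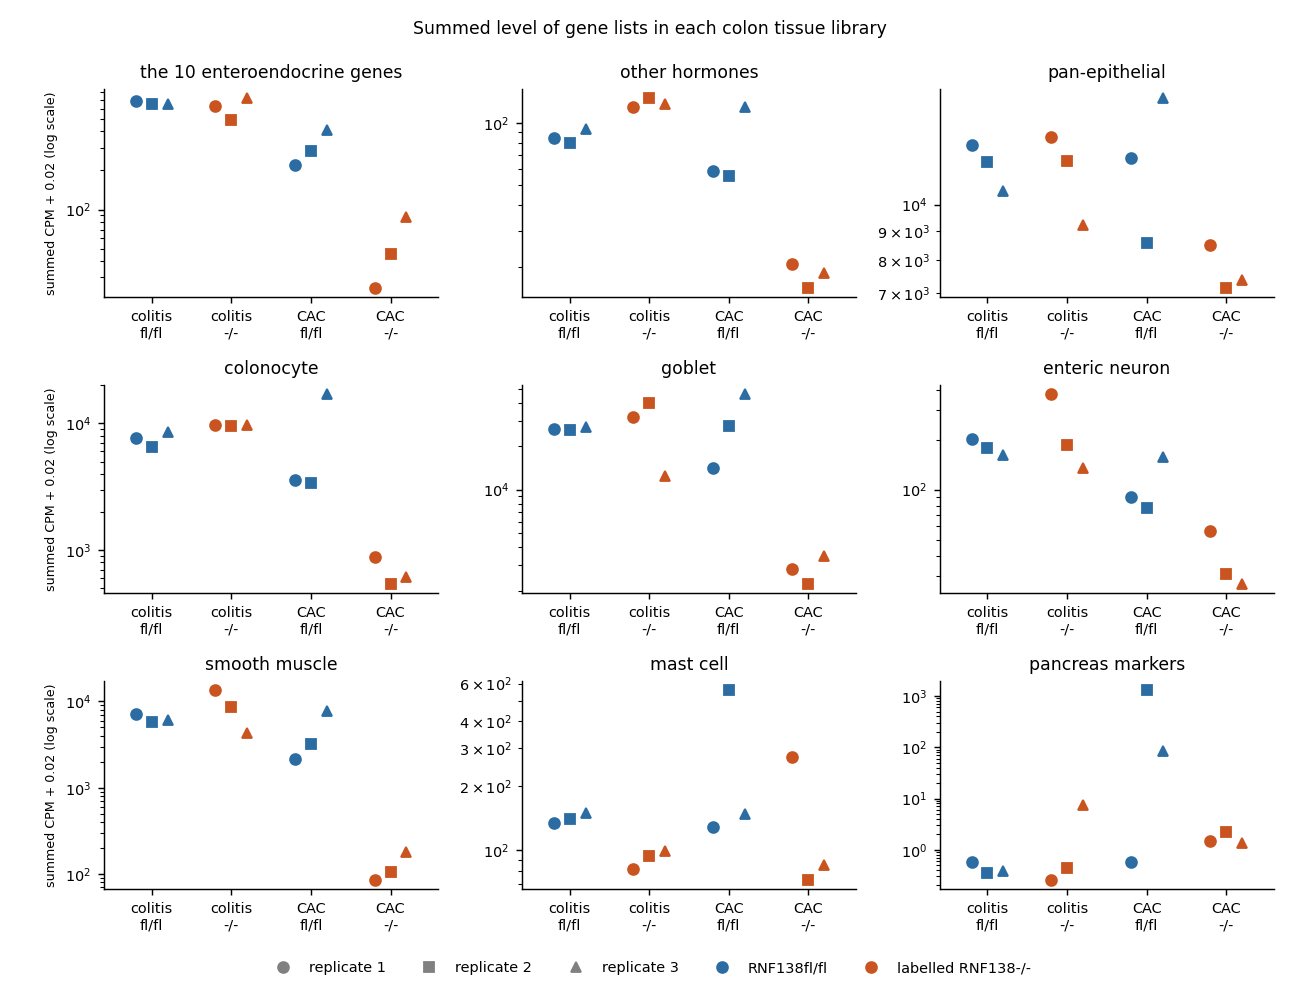
Summed CPM + 0.02 on log axes of the 10 enteroendocrine genes and of 8 other gene lists in each of the 12 colon tissue libraries. In CAC the libraries labelled RNF138-/- lie below every RNF138fl/fl library for the enteroendocrine, other hormone, pan-epithelial, colonocyte, goblet, neuron and smooth muscle lists. Pancreas markers reach 1301 CPM in 1 RNF138fl/fl library.

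Genes linked to enteroendocrine cells were also followed in 5 lists, 89 genes beside the members. The lists were regulators, granule and hormone processing genes, other hormones, nutrient and transmitter sensors, and hormone receptors and clearance genes. They also hold genes of other cells, such as *Vip* and *Gal*, and *Snap25* is also among the enteric neuron genes. In CAC 18 of the 70 tested were called lower and 1 higher, where 4.83% and 0.546% of all genes were, and their median log2 fold change was -1.44. With replicate 1 or 2 labelled RNF138-/- left out, 0 of all genes were called, and so none of these or of the marker genes above. Of 24 granule genes tested 8 were lower, of 18 regulators (*Neurod1* among them) 3, of 8 other hormones 2, of 8 sensors 2, and of 13 receptors and clearance genes 3, with 1 higher. The 6 largest changes were *Htr3a*, a subunit of the serotonin-gated channel, *Vip* and *Gal*, peptides of enteric neurons, the vesicle protein gene *Syt4*, the prohormone convertase gene *Pcsk2*, and *Scg3*, a granin. *Vip* was at 21.5 ± 3.20 CPM (SD, n = 3) in RNF138fl/fl libraries and at 0.188 ± 0.181 in those labelled RNF138-/- (log2 fold change -6.79, SE 0.67, adjusted p = 0.0171). *Htr3a* had 168 counts in the first group and 1 in the second, a ratio of 229 with an interval of 40.6 to 9107. *Pcsk2* was at 2.54 ± 2.22 against 0.0640 ± 0.0367 CPM (-5.25, adjusted p = 0.0326) and *Scg3* at 6.2005 ± 5.77 against 0.431 ± 0.224 (-3.88, adjusted p = 0.0452). Both are active in endocrine cells and in neurons alike.

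The regulators called lower were *Atoh1* (-1.78, adjusted p = 0.0278), which directs the whole secretory lineage, *Pax6* (-3.06, 0.0306), which acts on *Gcg*, and *Etv1* (-2.42, 0.0401), and these were named after their values were seen. Of the 18 regulators tested, with *Neurod1*, 10 were below 0 and 8 above, and the summed level of the list was at 208, 276 and 168 CPM in RNF138fl/fl libraries and at 274, 383 and 406 in those labelled RNF138-/-, with *Sox4* at 2.13 (adjusted p = 0.0993) and *Isl1* at 3.22 (adjusted p = 0.117). The other granule genes called lower were *Cpe*, *Pcsk1n*, *Resp18*, *Scg5* and *Snap25*, and *Pcsk1*, the convertase that releases GLP-1 from proglucagon, was at -1.08 (adjusted p = 0.235). Of the sensors *Ffar2*, a receptor of short-chain fatty acids, was at 11.2 ± 4.24 against 1.08 ± 0.274 CPM (-3.43, adjusted p = 0.0215). In colitis edgeR called 0 of the 76 tested, with a median of -0.03 and 11 past the unadjusted thresholds, where 4.48% of all genes were.

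The same genotype difference was then set between the 2 tissue models, where 9.37% of all 19390 genes were called lower. In 5 members the difference between genotype labels was more negative in CAC than in colitis: by -2.55 for *Chga* (SE 0.62, adjusted p = 0.0141), -3.31 for *Chgb* (SE 0.85, 0.0183), -3.45 for *Tph1* (SE 0.98, 0.0286), -3.79 for *Gcg* (SE 0.85, 0.0104) and -10.18 for *Sst* (SE 1.41, 0.000612), on the log2 scale. *Neurod1* was at -2.30 (adjusted p = 0.0601), *Insl5* at -3.05 (0.0954), and *Pyy*, *Cck* and *Neurog3* at -0.88, -1.72 and -0.41 with adjusted p between 0.284 and 0.866. Without the colitis and CAC libraries that stood apart, *Gcg* was at -3.49, *Insl5* at -4.74 and *Sst* at -9.26, while *Tph1* was at -0.13, *Chga* at -1.47 and *Chgb* at -1.33. RNF138fl/fl CAC and colitis labelled RNF138-/- then hold 1 library each, which are assumed to vary like the other groups.

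Between models within a genotype label, CAC tissue was lower than colitis tissue for different numbers of members. Among RNF138fl/fl libraries 3 of 10 were called lower, *Cck* (log2 fold change -2.73, adjusted p = 0.00939), *Gcg* (-2.28, 0.00977) and *Insl5* (-2.95, 0.0194), where 3.81% of all genes were. With only replicate 1 of RNF138fl/fl CAC kept, *Insl5* was not called (-2.45, adjusted p = 0.167). *Chga*, *Chgb*, *Tph1* and *Sst* were at -0.58, -0.42, -0.42 and 0.63, and their ranges overlapped. *Pyy* (-1.09, adjusted p = 0.251), *Neurod1* (-1.10, 0.149) and *Neurog3* (-2.32, 0.0812) did not pass, although every CAC library was below every colitis library, as for 16% of all genes. From the 2 groups alone *Neurog3* was called lower (adjusted p = 0.0469), where 3.09% of all genes were. Of the marker genes, 10 of 12 mast cell and 3 of 8 stem cell genes were called higher here, with 1 mast cell gene lower. Of 12 colonocyte and 12 enteric neuron genes, 1 each was called lower. The part of these cells in the members' values was not tested. Among libraries labelled RNF138-/-, 10 of 10 were called lower, where 19.6% of all genes were, from *Pyy* (-1.97, adjusted p = 0.0203) to *Gcg* (-6.07, 9.41e-06) and *Sst* (-9.55, 1.56e-05). For *Sst* the counts were 2026 and 3, a ratio of 839 with an interval of 287 to 4074. With scaling to pan-epithelial counts, the replicate block or the 2 groups alone, 8 of the 10 were called lower, where 12.1%, 19.2% and 19.3% of all genes were. With 1 library left out 8 to 10 were, where 17.7% to 20.9% of all genes were. Markers of other cell types moved in the same comparison. Called lower were 8 of 8 smooth muscle genes, 11 of 12 enteric neuron genes, 6 of 7 glial genes tested, 9 of 10 goblet cell genes and 10 of 12 colonocyte genes. Of 8 stem cell genes 6 were called higher, and of 12 mast cell genes 10 were called higher and 1 lower. Their part in the members' values was not tested. *Pyy* was at -0.92 (adjusted p = 0.230) without colitis replicate 1, and *Tph1* at -1.62 (adjusted p = 0.0917) with only that replicate kept.

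The organoids held granin and *Pyy* reads, few of most other members, and *Cck* above all tissue. In RNF138fl/fl organoids *Cck*, a peptide that empties the gallbladder and curbs feeding, was at 51.5, 74.4 and 38.0 CPM, and in those labelled RNF138-/- at 68.0, 73.9 and 53.1, above every tissue library. Against CAC tissue of the same label this was a log2 fold change of 5.49 (SE 0.71, adjusted p = 9.65e-06, 45.0-fold) and of 7.85 (SE 0.81, adjusted p = 9.25e-07). With all libraries and no block it was the only member called higher, where 17.5% and 17.9% of all genes were. *Gcg*, *Insl5* and *Sst* had 9, 5 and 1 counts over the 3 RNF138fl/fl organoid libraries and 4, 3 and 2 over those labelled RNF138-/-. Against RNF138fl/fl CAC tissue 6 members were called lower, where 26.8% of all genes were: *Gcg* (-6.90, adjusted p = 5.79e-06), *Insl5* (-7.39, 0.000191), *Neurod1* (-2.99, 0.00118), *Tph1* (-2.23, 0.0127), *Chga* (-1.27, 0.01999) and *Sst*, with 596 counts against 1 (ratio 554, interval 99.1 to 21921). With only replicate 1 of RNF138fl/fl CAC kept, *Chga* was at -0.76, under the 2-fold threshold, and *Tph1* at -1.15. With all libraries *Chgb* (-0.72) and *Pyy* (-1.30) did not pass. In this comparison 12 of 12 colonocyte, 10 of 10 goblet cell and 8 of 12 enteric neuron genes were called lower, with 1 neuron gene higher. Of 8 stem cell genes 4 were called higher and 1 lower. Their part in the members' values was not tested. Y-linked genes summed to 0 CPM in RNF138fl/fl organoids and to between 188 and 228 in RNF138fl/fl CAC tissue, so sex and model cannot be told apart here.

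In the libraries labelled RNF138-/- the only member called lower in organoids than in CAC tissue was *Gcg* (-2.95, adjusted p = 0.0453), where 26.5% of all genes were lower. Its ranges overlapped, and it was at -0.85 (adjusted p = 0.580) without CAC replicate 3, which held 40 of its 47 counts. The call was also lost without any 1 of the organoid libraries and with the replicate block (adjusted p = 0.0669). *Chga*, *Chgb*, *Tph1* and *Pyy* were at -0.55, 0.98, -0.50 and 0.33, with ranges that overlapped. *Chgb* was called higher with the replicate block (1.20, adjusted p = 0.0181) and without CAC replicate 3 (1.62, 0.0482). *Insl5* was at -3.87 (adjusted p = 0.0705), with ranges that did not overlap. It was called lower with no filter on low counts, DESeq2 and pan-epithelial scaling, where 16.2%, 26.5% and 24.5% of all genes were. The difference between genotype labels was set between organoids and CAC tissue as well, where 11.4% of all genes were called higher: *Neurod1* was the only member called (3.21, SE 0.98, adjusted p = 0.0277), at 0, 0.319 and 0.270 CPM in RNF138fl/fl organoids and 0.351, 0.264 and 0.224 in the others. It lost the call with pan-epithelial scaling (3.10, adjusted p = 0.0569) and without the CAC libraries that hold pancreas reads (2.51, 0.171). These comparisons share the CAC libraries with those above. Smooth muscle genes summed to between 62.4 and 343 CPM in RNF138fl/fl organoids and between 560 and 658 in the others.

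Between genotypes in the organoids, 1 of 5 members tested was called, with 7.04% of all 15294 genes called lower. *Chga* was at 14.1, 26.9 and 44.4 CPM in RNF138fl/fl organoids and at 11.4, 7.62 and 11.04 in those labelled RNF138-/-, which lay below all of the first, as for 25.7% of all genes (log2 fold change -1.55, SE 0.38, adjusted p = 0.0173, 2.92-fold). The call was lost without replicate 2 or replicate 3 labelled RNF138-/-, where 4.14% and 4.98% of all genes were called lower. With RNF138fl/fl replicate 1 left out, 3 members were called lower, where 8.8% of all genes were. *Chgb* was at 25.1, 47.3 and 129 against 38.3, 21.0 and 37.3 CPM (-1.10, SE 0.53, adjusted p = 0.138), and *Tph1* at 1.44, 3.67 and 8.56 against 1.75, 1.96 and 1.49 (-1.42, SE 0.58, adjusted p = 0.0883), both overlapping. RNF138fl/fl replicate 3 was again the highest library for all 3. *Pyy* was at 15.7, 10.6 and 22.1 against 36.9, 10.0 and 18.1 CPM (0.38, SE 0.45, adjusted p = 0.530), and *Cck* differed by 0.21 (SE 0.24, adjusted p = 0.516). Scaled to pan-epithelial counts, which moved the median of all genes to 0.58, *Chga* was at -0.98 and under the 2-fold threshold (adjusted p = 0.00203).

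Genes of the 5 lists moved in both directions in the organoids, with 6 of 50 tested called higher and 12 lower, where 7.94% and 7.04% of all genes were. *Sct*, the gene of secretin, was at 2.17 ± 0.627 CPM (SD, n = 3) in RNF138fl/fl organoids and at 0.277 ± 0.208 in those labelled RNF138-/- (log2 fold change -2.95, SE 0.53, adjusted p = 0.00542). *Slc18a1*, the vesicular monoamine transporter of enterochromaffin cells, was at 64.0 ± 7.27 against 22.1 ± 5.17 CPM (-1.57, adjusted p = 0.00171), and *Scg2*, a granin, at 4.62 ± 2.67 against 0.918 ± 0.241 (-2.37, adjusted p = 0.0108). Higher were *Rab3c*, a secretory vesicle GTPase, at 21.5 ± 2.89 against 2.82 ± 0.982 CPM (2.89, adjusted p = 0.000906), and the transcription factor genes *Etv1*, at 28.5 ± 8.39 against 3.75 ± 0.505 (2.89, adjusted p = 0.000678), and *Runx1t1*, at 5.84 ± 1.59 against 1.41 ± 0.422 (1.99, adjusted p = 0.00403). *Etv1* thus was called in opposite directions in CAC tissue and in the organoids.

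Over the 12 tissue libraries the genes most like the mean of the 9 members with at least 1 CPM, by Pearson's r of log2(CPM + 0.5) among 15998 genes, were *Dusp23* (r = 0.982), *Tff3* (0.981), *Ptger3* (0.981), *Cgref1* (0.9803), *Cnn1* (0.97998), *Gdf10* (0.979), *Tstd1* (0.978) and *Adcy5* (0.978). The 12 points share their 4 groups and the low libraries of CAC labelled RNF138-/-, so these values describe the group pattern and carry no test. *Tff3* is a goblet cell peptide gene and *Cnn1* a smooth muscle gene. For single members, *Chga* and *Chgb* were both closest to *Bmp3* (r = 0.985 and 0.986), *Pyy* to *Ppy* (0.957), *Gcg* to *Gstm2* (0.984), *Insl5* to *Brinp2* (0.9796), *Cck* to *Ache* (0.978), *Neurod1* to *Aldh1b1* (0.9798), *Tph1* to *Gm8989* (0.976) and *Sst* to *Tpm1* (0.992). *Pyy* and *Ppy* encode peptides of the neuropeptide Y family. Among the members, the closest pair was *Chga* and *Chgb* (r = 0.979, rho = 0.916) and the least close *Tph1* and *Pyy* (r = 0.387, rho = 0.182).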

How the data were processed

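RNA was isolated with Trizol per the labels (Trizol or an RNeasy kit in the study's methods), libraries were made with a TruSeq RNA kit, and paired-end reads were aligned by the authors with STAR 2.6.1d and counted with HTSeq 0.11.2, per the submitters' processing notes, with mm10 as the build. The authors deposited raw whole-number counts per gene for 36757 genes in 18 libraries. Their table of fold changes and p-values was not used. Whether counting used strand is not given in the sources used here, and intervals cover counting error only.

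Counts were tested in R 4.3.3 with edgeR 4.0.16 (quasi-likelihood F-test, TMM, filterByExpr, Benjamini-Hochberg adjustment over all genes tested). Genotypes were compared within each model from its 6 libraries, and models and differences between genotype effects in 1 fit of all 18. Calls needed both an adjusted p below 0.05 and a fold change of 2 or more. CPM values are scaled with TMM factors of all 18 libraries, and CPM per kb divides by the union of exons. DESeq2 1.42.0 and the other alternatives are given in the closing section. Tables were made in Python 3.11.15 with pandas 2.3.3 and SciPy 1.17.1, and the fits were tested on simulated data. Total counts were between 11514716 and 24390082 per library, and replicates differed by more than sampling noise, with a chi-square per degree of freedom between 7.44 and 144.

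The members and gene lists were chosen with earlier results of these data known. All members are named, and of the 5 enteroendocrine lists at most 6 called genes per genotype comparison, those with the largest absolute log2 fold change and, in the higher group, a mean of 1 CPM or more. Of each marker list up to 2 of the first genes are named (some are not reported here), and of the most-like genes the first 8. *Pcsk1*, *Ffar2*, *Cpe* and the other list genes named beyond this were chosen after their values were seen.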

Additional observations from a re-analysis of the deposited data

Results flagged for a closer look

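In 5 members the difference between genotype labels was tested between CAC and colitis tissue and passed the thresholds with all libraries, on the log2 scale at -2.55 for *Chga*, -3.31 for *Chgb*, -3.45 for *Tph1*, -3.79 for *Gcg* and -10.18 for *Sst*. The value for *Sst* rests on 3 counts in the 3 CAC libraries labelled RNF138-/-. Without the libraries that stand apart *Chga* was at -1.47, *Chgb* at -1.33 and *Tph1* at -0.13. With the replicate block *Tph1* was not called (adjusted p = 0.0505), and with pan-epithelial scaling neither *Chga* nor *Tph1* was. In *Neurod1* the difference was tested between organoids and CAC tissue and was 3.21, with at most 0.362 CPM in every organoid library and every CAC library labelled RNF138-/-.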

How the results depend on the processing

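Of the values recomputed under an alternative other than leaving out 1 library, 491 kept their direction and side of the threshold, 33 lost and 32 gained a call or count, and 9 reversed. With 1 library left out these were 540, 53, 12 and 19. The settings without the libraries that stand apart were chosen after seeing the data. The cause of these changes was not tested.

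In colitis, 15 genes and 0 members were called. Without a filter on low counts 354 genes and 2 members were called, with DESeq2 343 and 2, with the Y-linked covariate 176 and 2, and without the libraries that stand apart 357 and 2. The last setting reversed *Chga* (-0.29), *Chgb* (-0.89), *Tph1* (-1.94), *Pyy* (0.65) and *Cck* (0.43). In CAC, 954 genes and 5 members were called. RLE normalization gave 913 genes and 4 members (*Chga* lost). No filter gave 1641 genes, DESeq2 2464 and all 18 libraries in 1 fit 2834, each with 7 members, the Y-linked covariate 0 genes and 0 members, and leaving out the libraries that stand apart 34 genes and 0 members. In organoids, 2292 genes and 1 member were called. Pan-epithelial scaling gave 4150 genes (3752 higher and 398 lower, against 1215 and 1077) and 0 members, no filter 3 members and DESeq2 2. CAC against RNF138fl/fl colitis gave 2636 genes and 3 members, or 1689 and 4 from the 2 groups alone (*Neurog3* gained), and without the libraries that stand apart *Sst* was at -1.30. CAC against colitis labelled RNF138-/- gave 3392 higher and 3804 lower genes, or 6134 and 2337 with pan-epithelial scaling. Organoids against CAC labelled RNF138-/- gave 8604 genes and 2 members, or 7980 and 1 from the 2 groups alone. No filter gave 9674 genes there, DESeq2 8691 and pan-epithelial scaling 8376, each with 3 members (*Insl5* gained). The difference of genotype effects between CAC and colitis called 2315 genes and 5 members. Pan-epithelial scaling gave 1245 and 3 (*Chga* and *Tph1* lost). *Neurog3* was at 0.032 with this scaling and at 0.32 without the libraries that stand apart. Between organoids and CAC, 3673 genes and 1 member were called. Pan-epithelial scaling gave 2373 and 0, no filter 2 members, DESeq2 4, and leaving out the libraries that stand apart 1975 and 0.

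With 1 library left out, colitis gave 0 to 147 genes and 0 to 1 member, and values between -0.045 and 0.55 for *Chga*, -0.18 and 0.95 for *Chgb*, -0.58 and 0.83 for *Tph1*, -1.39 and 0.037 for *Pyy*, and -1.11 and 0.073 for *Cck*. CAC gave 0 to 1136 genes and 0 to 5 members, and organoids 1515 to 3130 genes and 0 to 3 members, with *Pyy* between -0.23 and 0.74. CAC against RNF138fl/fl colitis gave 1726 to 3147 genes, with *Sst* between -0.91 and 1.06. Organoids against RNF138fl/fl CAC gave *Neurog3* between -5.53 and 0.087. Organoids against CAC labelled RNF138-/- gave 1 to 2 members, with *Neurod1* between -0.21 and 0.62, *Neurog3* -0.70 and 1.22, *Pyy* -0.29 and 1.02, *Sst* -2.86 and 0.69, and *Tph1* -0.88 and 0.11. The difference between CAC and colitis gave 1399 to 3009 genes and 3 to 6 members, with *Neurog3* between -0.94 and 0.67 and *Pyy* between -1.58 and 0.17, and that between organoids and CAC gave 0 to 3 members.

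The labels number the replicates, but same-numbered libraries did not all deviate together (correlations of 0.092 to 0.483 in colitis, 0.028 to 0.207 in CAC and -0.181 to 0.054 in organoids), so they share only a number. With the replicate block colitis gave 89 genes and 0 members, with *Tph1* at -0.11, CAC 1079 and 5 (*Tph1* lost, *Neurod1* gained), organoids 2071 and 1, CAC against colitis labelled RNF138-/- 8 members (*Pyy* and *Neurog3* lost), organoids against CAC labelled RNF138-/- *Chgb* in place of *Gcg*, the difference between CAC and colitis 4 members, and that between organoids and CAC 2 members (*Chgb* gained). Members under about 1 CPM rest on few counts, and their fold changes are limited by depth.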

Other observations

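*Nts*, the gene of the gut peptide neurotensin, was at 0.501 ± 0.00519 CPM (SD, n = 3) in RNF138fl/fl colitis tissue and at 19.3 ± 12.7 in colitis labelled RNF138-/-, with libraries between 4.66 and 26.7 (log2 fold change 5.25, adjusted p = 0.0525, edgeR). It was chosen after its values were seen, and in RNF138fl/fl CAC tissue it was between 0.246 and 28.8 CPM.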
